A study of Mus musculus with 30 samples.

Results

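The 9 genes described here mark microglia, the resident macrophages of the brain: C1qa, C1qb, C1qc, Csf1r, Cx3cr1, P2ry12, Trem2, Tyrobp and Ctss. They were taken by gene symbol from a table of transcript levels, in which they hold 16 of 46109 rows and 9 of 20227 symbols. Each of the 30 libraries holds polyadenylated RNA of whole hippocampus from mice aged 15 months, with 6 libraries to each of 5 diets, and the series calls them biological replicates. The diets are labelled ChowCR, 5% P, 10% P, 15% P and Chow, and the series title names caloric restriction and low protein, high carbohydrate diets, from which CR is read as caloric restriction and P as protein. Every diet had 3 females and 3 males. Strain, diet composition, the length of feeding and the degree of restriction are not given in the labels. Microglia were not isolated, so each value comes from all cells of the tissue, and fewer cells of a type and less RNA per cell cannot be told apart.

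Microglia survey the tissue with moving processes, take up debris and synaptic material, and depend on signals from neurons and glia for survival and position. CSF1R binds the growth factors CSF1 and IL-34 and keeps microglia alive. CX3CR1 is the receptor of fractalkine, a protein carried by neurons, and P2RY12 senses ADP and steers the processes toward injury. TREM2 is a surface receptor for lipids and lipoproteins that signals through the adaptor TYROBP, also called DAP12. C1QA, C1QB and C1QC are the chains of C1q, the protein that starts the classical complement cascade and can tag synapses for removal, and cathepsin S, made from Ctss, is a protease of lysosomes. The comparison of diets asks if the level of any of these RNAs differed between restricted, low-protein and chow-fed mice.

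Levels are given as FPKM, fragments scaled by transcript length and by library size, as the authors deposited them. A library has a value only for the transcripts it lists, and each library listed 19681 to 21853 transcripts with a summed FPKM of 152235 to 173079. An unlisted transcript has no value, which is not the same as 0. The file gives no read counts, so the depth behind each value is unknown and no counting interval can be given.

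No difference between diets in the level of these genes passed the test, and most of their transcripts were listed in only some libraries. C1qb had a low and a high range of values, and C1qc was divided into 2 ranges at a narrower gap. C1qb-201 and Ctss-202 were listed in all 30 libraries. C1qc-201 and Trem2-203 were listed in 29, Cx3cr1-201 and P2ry12-205 in 27, C1qc-202 and Csf1r-202 in 26, Trem2-201 in 22, Tyrobp-201 in 21 and Ctss-201 in 20. Trem2-202 was listed in 16 libraries, C1qa-201 in 10, and P2ry12-203, P2ry12-202 and P2ry12-201 in 6, 5 and 2. No listed value of a member was 0.

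**Figure D1:**
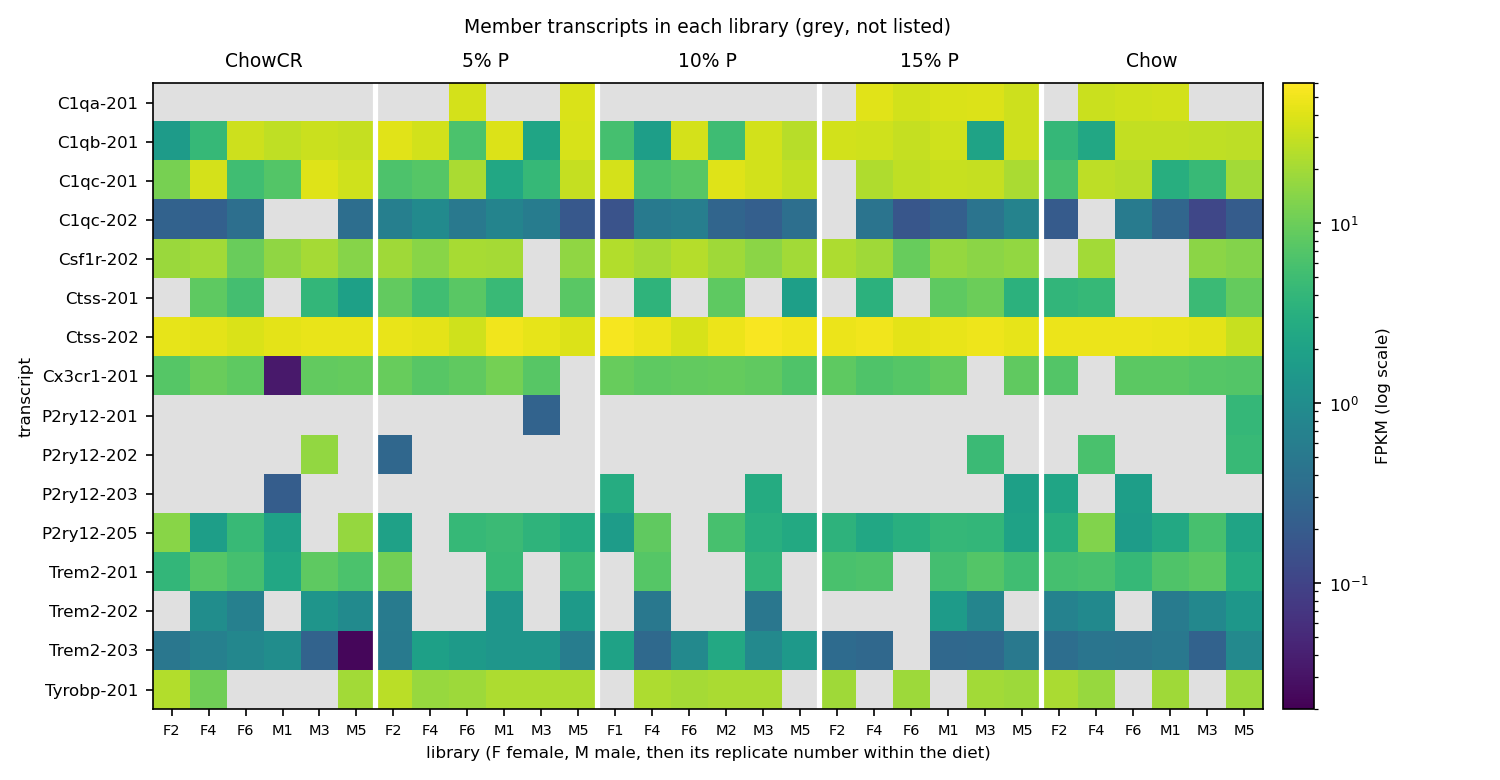
FPKM of the 16 transcripts of the 9 genes (rows) in the 30 libraries (columns, grouped by diet, females before males), on a logarithmic colour scale, with grey for a library that did not list the transcript. Ctss-202 has a value in all 30 libraries, C1qa-201 in 10.

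On the FPKM scale, which allows levels of different genes to be compared per length, Ctss-202 was the highest with a mean of 45.1 FPKM. C1qa-201 averaged 36.2 FPKM over the 10 libraries that listed it, C1qb-201 22.7, Tyrobp-201 20.2, C1qc-201 19.9 and Csf1r-202 17.7 FPKM over theirs. Cx3cr1-201 followed with 7.91 FPKM, Trem2-201 with 5.82, Ctss-201 with 5.71 and P2ry12-205 with 4.67 FPKM. The coefficient of variation was 8.94% for C1qa-201 and 12.1% for Ctss-202, against 62.7% for C1qb-201, 65.2% for C1qc-201 and 85.5% for P2ry12-205.

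**Figure D2:**
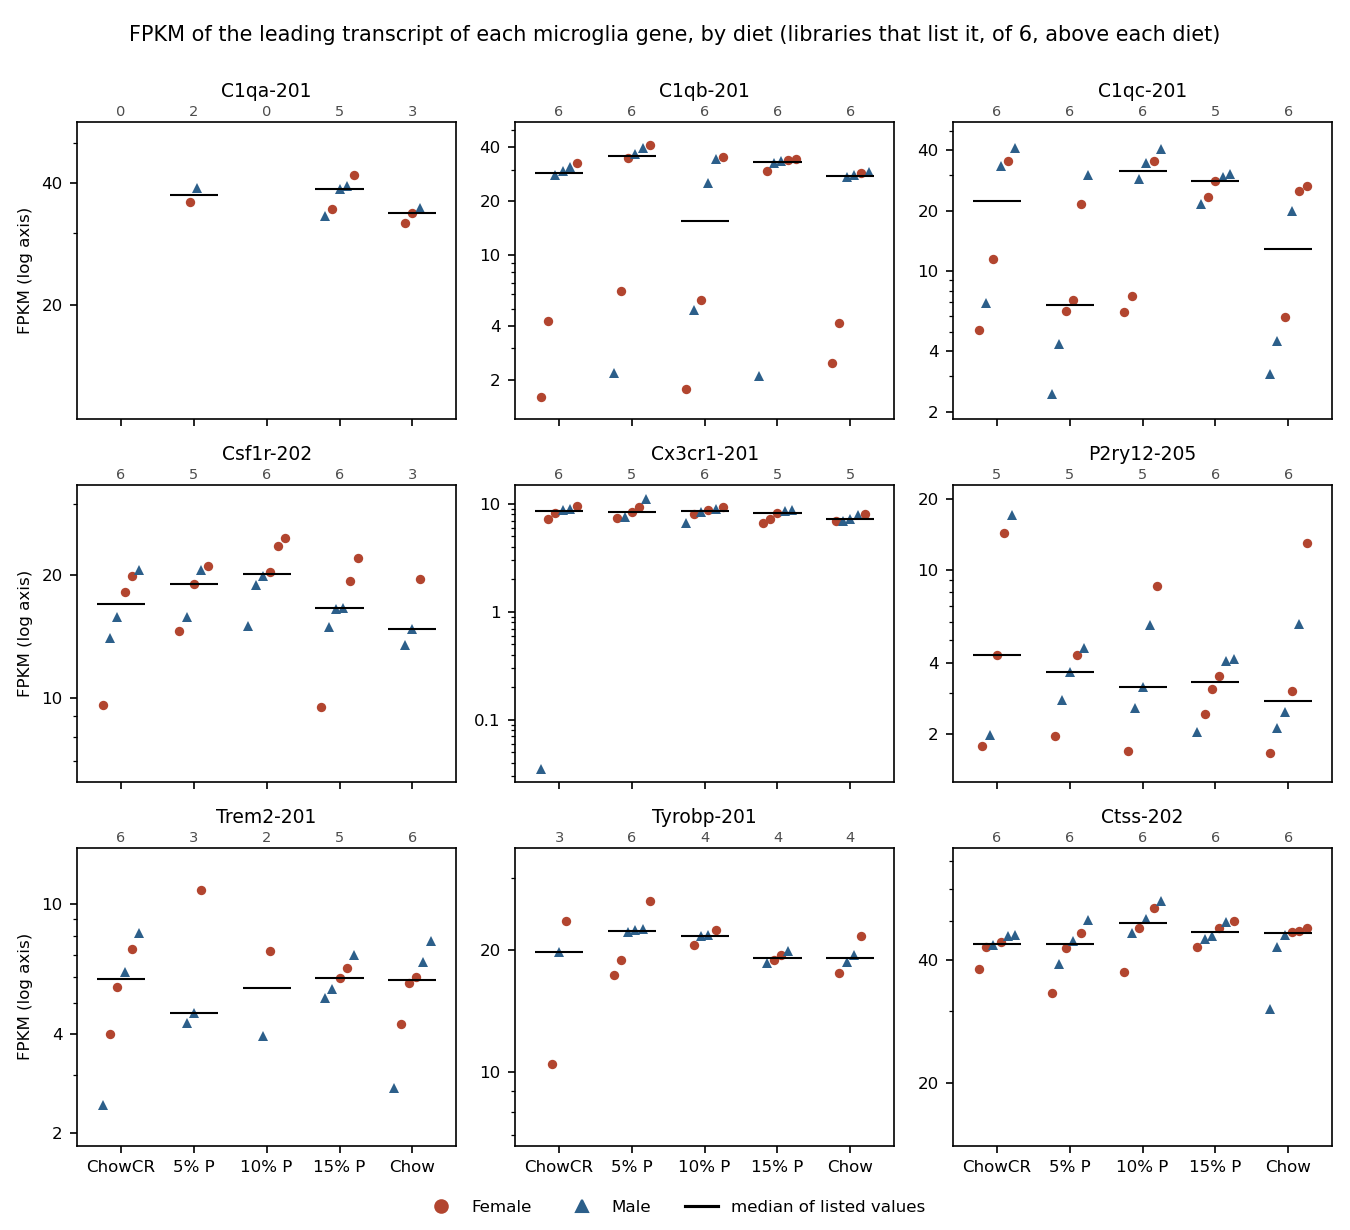
FPKM (logarithmic axes) of the leading transcript of each of the 9 genes in the libraries of each diet, with females as circles, males as triangles, the median of the listed values as a bar and the number of libraries that listed the transcript above each diet. C1qb-201 and C1qc-201 lie in a low and a high range, Ctss-202 stays between 30.3 and 56 FPKM, and 1 ChowCR library has Cx3cr1-201 at 0.0349 FPKM.

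The 3 C1q genes lie side by side on the minus strand of chromosome 4, in the order C1qb, C1qc and C1qa, within 18675 bases (chr4:136880129-136898803, GRCm38). C1qb-201 had values of 1.60 to 6.30 FPKM in 10 libraries and of 25.3 to 41.4 FPKM in the other 20, and no library lay between. Low values occurred in every diet: 2 of 6 ChowCR, 2 of 6 5% P, 3 of 6 10% P, 1 of 6 15% P and 2 of 6 Chow libraries. The lowest, median and highest were 1.60, 28.8 and 32.9 FPKM in ChowCR, 2.19, 35.7 and 41.4 in 5% P, 1.77, 15.5 and 35.3 in 10% P, 2.09, 33.1 and 34.5 in 15% P, and 2.46, 27.7 and 29.2 FPKM in Chow. All diets overlapped, and the 10% P median lay in the gap, with 3 of its libraries on each side. By sex, 7 of 15 female and 3 of 15 male libraries were low. A gap this wide was not peculiar to C1qb: of the 4447 transcripts listed in all libraries with a mean of at least 1 FPKM, 432 (9.71%) had a gap at least as large, of 1.92 on the log2 scale, with 5 or more libraries on each side. For Ctss-202, 60.02% of those transcripts had a gap at least as large as its own. No row named only by its location overlaps any of the 9 genes.

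C1qc-201 was also divided into 2 ranges, at its largest gap with 5 or more libraries on each side. It had 2.44 to 11.4 FPKM in 12 libraries and 20.1 to 41.2 FPKM in 17, and 1 15% P library did not list it. This gap, 0.78 on the log2 scale, was narrower than that of C1qb-201, and the low range is itself wide, so the division is less clear than for C1qb-201. Of the 4447 transcripts listed in all libraries, 15.83% had a gap of at least 1. C1qc-201 is not among the 4447, and no share was computed for a gap of its size. The low values were in 3 ChowCR, 4 5% P, 2 10% P, 0 15% P and 3 Chow libraries. The medians were 22.4 FPKM in ChowCR, 6.77 in 5% P, 31.7 in 10% P, 28.1 in 15% P and 12.97 FPKM in Chow. The low values of both genes were not always in the same libraries: 4 libraries were low in both, 11 were high in both, 6 were low in C1qb-201 alone and 8 in C1qc-201 alone. The shorter C1qc-202, annotated as a processed transcript without a coding sequence, stayed at 0.109 to 0.925 FPKM.

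**Figure D3:**
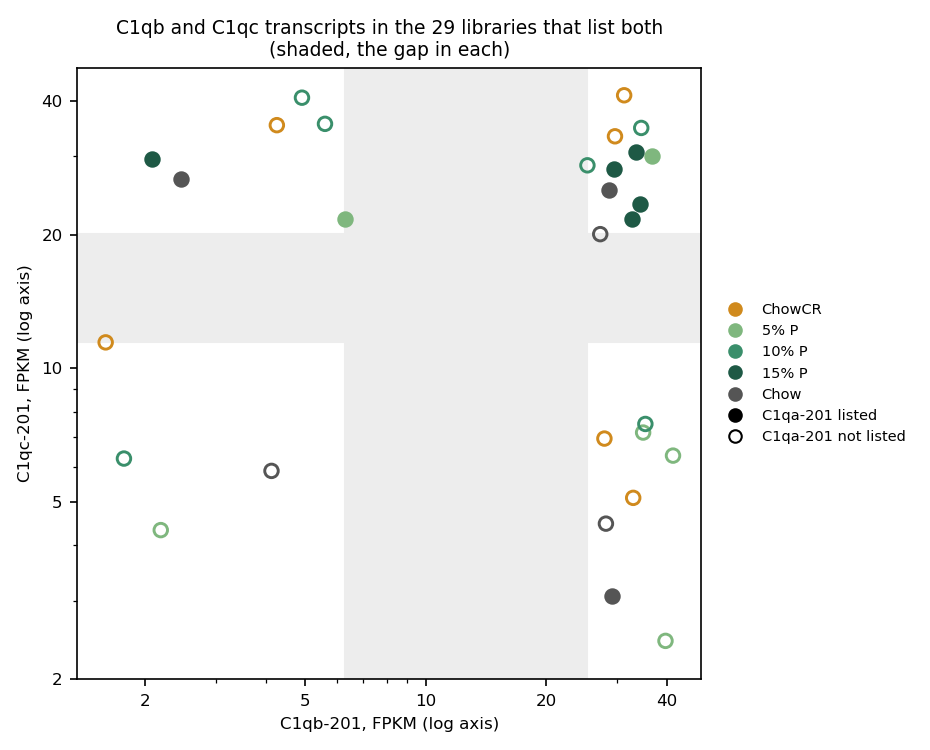
C1qb-201 against C1qc-201 in the 29 libraries that list both (FPKM, logarithmic axes), coloured by diet and filled where the library also lists C1qa-201, with the gaps in grey. Divided at these gaps, of which that of C1qc-201 is the narrower, the points form 4 groups. They hold 4 libraries low in both, 11 high in both, 6 low in C1qb-201 and 8 low in C1qc-201.

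C1qa-201 differed from its neighbours in that a library listed it at a steady level or not at all. It was listed by 0 ChowCR, 2 5% P, 0 10% P, 5 15% P and 3 Chow libraries. The values were 35.8 and 38.7 FPKM in 5% P, 33.1, 34.5, 38.6, 39.3 and 41.8 FPKM in 15% P, and 31.8, 33.7 and 34.7 FPKM in Chow. All 10 values lay between 31.8 and 41.8 FPKM. Of the 10 libraries that listed C1qa-201, C1qb-201 was low in 3 and C1qc-201 in 1. Listing by 5 of 6 15% P and 0 of 6 ChowCR libraries gave a two-sided Fisher's exact p of 0.0152, and an adjusted p of 1 over the 29636 transcripts tested. It was the lowest p of 80 such tests on the 16 transcripts over 7 pairs of diets. The share of all transcripts that passed in each of the 7 was 0%. With 6 libraries to a diet, even listing by all of 1 diet and none of the other could pass only if many transcripts did so. These tests had little room to call any transcript, so the 0% and the adjusted p say little about listing.

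Csf1r-202 (chr18:61105852-61132149, GRCm38) encodes the CSF1 and IL-34 receptor. It was listed by all 6 ChowCR, 5 5% P, 6 10% P and 6 15% P libraries, and by 3 Chow libraries. In ChowCR it ranged over 9.58, 17.0 and 20.6 FPKM (lowest, median, highest), and in 10% P over 15.1, 20.2 and 24.8 FPKM. In 15% P the lowest, median and highest were 9.48, 16.6 and 22.1 FPKM. The 5% P values were 14.6, 15.8, 19.1, 20.7 and 21.1 FPKM, and the 3 Chow values 13.5, 14.8 and 19.6 FPKM. The medians ran from 10% P through 5% P, ChowCR and 15% P to Chow, and every neighbouring pair overlapped widely. Part of the gene overlaps Hmgxb3 on the opposite strand, and the sources used here do not say if strand was used in the quantification, so the origin of reads in that overlap is uncertain.

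Cx3cr1-201 (chr9:120048683-120068296), the fractalkine receptor, had similar values in all libraries that listed it except 1. ChowCR replicate 1 had 0.0349 FPKM, while the other 5 ChowCR libraries had 7.21 to 9.56 FPKM. The lowest, median and highest were 6.62, 8.62 and 9.28 FPKM in 10% P. The 5 listed values had medians of 8.43 FPKM in 5% P, 8.30 in 15% P and 7.24 FPKM in Chow, with ranges of 7.45 to 11.2, 6.62 to 8.81 and 6.98 to 8.04 FPKM. All other listed values of the 30 libraries thus lay within 6.62 and 11.2 FPKM. ChowCR replicate 1 was not low in every member: it listed C1qb-201 in the high range and Ctss-202 at 43.5 FPKM, C1qc-201 in the low range and Trem2-201 at 2.44 FPKM, the lowest of all libraries, and it did not list Tyrobp-201. Over the whole table this library also listed the fewest transcripts of the 30, 19681, and the part of this in its values was not tested.

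P2ry12, the ADP receptor on chromosome 3, had 4 protein-coding transcripts in the table, which share 83.2% to 100% of their bases with each other, so their separate levels are uncertain. P2ry12-205 (chr3:59217905-59220200) carried most of the listed values, with medians of 4.35 FPKM in ChowCR, 3.67 in 5% P, 3.17 in 10% P, 3.32 in 15% P and 2.77 FPKM in Chow. Its highest values, 14.4 and 17.0 FPKM in ChowCR and 12.97 FPKM in Chow, stood far above those medians, and all diets overlapped. Summed over its transcripts, P2ry12 ranged from 1.77 to 18.9 FPKM in the 28 libraries that listed any of them. Med12l overlaps P2ry12 on the opposite strand, with the same uncertainty as for Csf1r.

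Trem2 (chromosome 17) had 3 transcripts. Trem2-201 (chr17:48346401-48352273), which encodes the receptor, was listed by 6 ChowCR, 3 5% P, 2 10% P, 5 15% P and 6 Chow libraries. Its lowest, median and highest were 2.44, 5.90 and 8.15 FPKM in ChowCR. The values were 4.35, 4.66 and 11.02 FPKM in 5% P, 3.94 and 7.17 in 10% P, and 5.19 to 6.99 FPKM in 15% P, and in Chow the lowest, median and highest were 2.74, 5.87 and 7.74 FPKM. All diets overlapped. Listing by 2 of 6 10% P libraries against 6 of 6 Chow libraries gave an exact Fisher p of 0.0606 and an adjusted p of 1. The limit of such tests given for C1qa-201 holds here too. Trem2-203 is annotated as a retained intron, a form that keeps intron sequence and has no annotated protein. In the 8 libraries without Trem2-201, Trem2-203 was listed by 7, at 0.869 to 2.48 FPKM with a median of 1.58, whereas in the 22 libraries with it Trem2-203 lay at 0.0227 to 1.34 FPKM with a median of 0.465. Trem2-202, the other coding form, was listed by 0 of those 8 libraries and 16 of the 22. The values of Trem2-203 in 5% P (0.524 to 1.89 FPKM in 6 libraries) lay above all those in 15% P (0.298 to 0.506 FPKM in 5). Trem2-201 shares 1049 of its 1088 bases with the other transcripts of the gene, so the division of reads among them is uncertain.

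Tyrobp-201 (chr7:30413788-30417577), the adaptor of TREM2, was listed by 3 ChowCR, 6 5% P, 4 10% P, 4 15% P and 4 Chow libraries. In ChowCR the values were 10.49, 19.7 and 23.5 FPKM. The 5% P libraries had a lowest, median and highest of 17.3, 22.2 and 26.4 FPKM. The 10% P values were 20.6, 21.6, 21.7 and 22.4 FPKM, the 15% P values 18.5, 18.8, 19.4 and 19.8 FPKM, and the Chow values 17.6, 18.7, 19.5 and 21.6 FPKM. The ranges of 10% P and 15% P did not overlap. Over the 16 transcripts, 92 pairs of diets had at least 4 values on each side, and 2 of them did not overlap, this one and 5% P against 15% P for Trem2-203. Of all transcripts listed in at least 20 libraries and in 4 or more of each diet, 0.562% were separate between 10% P and 15% P and 0.442% between 5% P and 15% P. These shares cover only the 2 pairs of diets found apart. The 2 of 92 spans all pairs of diets and also transcripts listed in fewer libraries. No share of all transcripts was computed on that basis, so the 2 of 92 cannot be set against these shares. These pairs were picked after the values were seen, and no test is given for them.

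Ctss, which encodes cathepsin S, had a value in every library. Ctss-202 had a lowest, median and highest of 38.1, 43.9 and 46.0 FPKM in ChowCR, 33.2, 43.7 and 50.2 in 5% P, and 37.4, 49.3 and 56 FPKM in 10% P. In 15% P they were 43, 46.9 and 49.9 FPKM, and in Chow 30.3, 46.6 and 48.0 FPKM. The diets overlapped in every pair. Ctss-201 was listed at 1.84 to 9.88 FPKM in 20 libraries. Both are coding transcripts of 8 exons that share 1352 of 1355 bases, and their sequences are shown because the division of the gene's level between them rests on so short a difference. In the coding sequence Ctss-201 holds 3 further bases in the reference (chr3, from 95529434, plus strand, GRCm38), printed in capitals, with the flanking bases from the GENCODE M21 transcripts:
Ctss-201: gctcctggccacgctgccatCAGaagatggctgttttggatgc
Ctss-202: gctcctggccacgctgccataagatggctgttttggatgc

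Chow replicate 5 had the lowest Ctss-202, 30.3 FPKM, beside 9.11 FPKM of Ctss-201, the highest of that diet. With both transcripts summed, Ctss averaged 46.8 ± 3.5 FPKM in ChowCR, 48.5 ± 5.7 in 5% P, 51.0 ± 6.9 in 10% P, 51.1 ± 5.8 in 15% P and 47.3 ± 4.5 FPKM in Chow (SD, n = 6 each). The sums of all diets overlapped, and the lowest Chow sum was 39.5 FPKM.

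Differences between diets were tested with limma on log2(FPKM + 0.5), a scale that understates the change of low transcripts, with sex as a covariate and an adjusted p threshold of 0.05 over all features of a comparison. The fits covered 4447 transcripts listed in all 30 libraries, of which 2 are members, 8859 transcripts listed in at least 20, of which 9 are members, and the gene sums, 4036 in number, of which C1qb and Ctss are members. In no set did a member pass in any of the comparisons of ChowCR, 5% P, 10% P, 15% P or the averaged P diets with Chow, or of single P diets with ChowCR (limma, 0 of 2, 0 of 9 and 0 of 2). At an unadjusted p under 0.05, the same 8 comparisons gave 0 members, beside 5.26% to 6.81% of the transcripts listed in all libraries, 4.99% to 6.81% of those listed in at least 20 and 5.15% to 7.31% of the gene sums. With so few members, 0 is near that background. Over the whole table, ChowCR against Chow called 0.045% of the transcripts listed in all libraries, 0.0339% of those listed in at least 20 and 0.0743% of the gene sums. The other comparisons of diets called 0% in each set, except for 0.0113% of the transcripts listed in at least 20 libraries both for 10% P and for the averaged P diets, each against Chow. A test for any difference among the 5 diets called 0% of the gene sums, and gave adjusted p-values of 0.965 for C1qb and 0.923 for Ctss (limma F test). The members' shares are therefore near those of all transcripts.

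**Figure D4:**
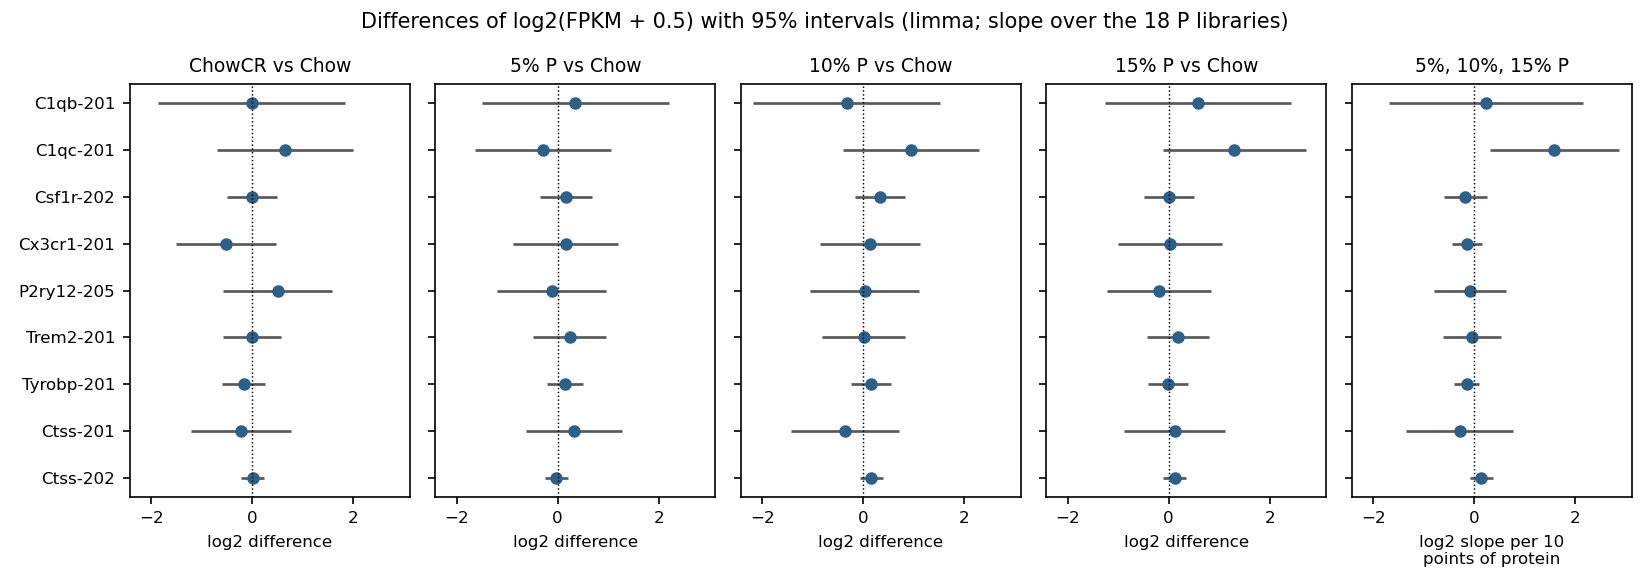
Log2 differences of the 9 member transcripts listed in at least 20 libraries, with 95% intervals, for each diet against Chow, and the log2 slope per 10 percentage points of protein over the 3 P diets. All intervals of the 4 diets include 0, those of Ctss-202 are the narrowest and those of C1qb-201 the widest, and only the slope of C1qc-201 (1.59) has an interval above 0, with an adjusted p of 0.975.

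The width of the intervals differed between the genes in the fit of transcripts listed in at least 20 libraries. For Ctss-202 the log2 difference was 0.01 in ChowCR, -0.02 in 5% P, 0.16 in 10% P and 0.12 in 15% P against Chow, with a standard error of 0.11, and the 95% intervals together spanned -0.26 to 0.39. For Tyrobp-201 the 4 differences lay between -0.17 and 0.16, and for Csf1r-202 between -0.01 and 0.33, with intervals spanning -0.59 to 0.55 and -0.50 to 0.82. Trem2-201 differed by -0.0047 in ChowCR and by 0.24 in 5% P, 0.01 in 10% P and 0.19 in 15% P, within -0.81 to 0.95. C1qb-201, split between its low and high range, differed by -0.01, 0.35, -0.33 and 0.58 in the same order with a standard error of 0.90, and its intervals reached from -2.17 to 2.43.

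The difference for Cx3cr1-201 between ChowCR and Chow, -0.52 (standard error 0.48, limma adjusted p = 0.910), depended on 1 library: without ChowCR replicate 1 it was 0.20 (standard error 0.13, limma adjusted p = 0.846). The largest difference of any member from Chow was that of C1qc-201 in 15% P, 1.30 (standard error 0.69, unadjusted p = 0.0696, limma adjusted p = 0.948). Against Chow, C1qc-201 also differed by 0.66 in ChowCR, -0.28 in 5% P and 0.94 in 10% P. The P2ry12-205 differences from Chow were 0.51 in ChowCR, -0.11 in 5% P, 0.03 in 10% P and -0.19 in 15% P, each smaller than its standard error.

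Against ChowCR, the P diets also gave no called member. The smallest unadjusted p among the members was that of Csf1r-202 in 10% P, with a log2 difference of 0.34 (standard error 0.19, limma adjusted p = 0.932). In 5% P it was that of Tyrobp-201, 0.31 (standard error 0.19, limma adjusted p = 0.836), and in 15% P that of P2ry12-205, -0.70 (standard error 0.52, limma adjusted p = 0.886). These comparisons share the ChowCR libraries, and the preceding ones the Chow libraries, so their values are not independent of each other.

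Over the 18 libraries of the P diets, the fitted slope of C1qc-201 was 1.59 on the log2 scale per 10 percentage points of protein (standard error 0.61, unadjusted p = 0.0185), which did not pass (limma adjusted p = 0.975, 0 of 8845 transcripts called, 0%). Its low values fell on 4 of 6 5% P, 2 of 6 10% P and 0 of 5 15% P libraries. The slopes of the other 8 member transcripts lay between -0.29 and 0.23, with Tyrobp-201 at -0.15 (standard error 0.12) and Ctss-202 at 0.14 (0.11). Under every alternative that gave a value the slope of C1qc-201 was positive, from 1.14 to 1.92, and it was called in none.

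Females and males were compared over all diets. In females C1qb-201 averaged 19.8 ± 15.9 FPKM and in males 25.7 ± 12.3 FPKM (SD, n = 15 each), a log2 difference of -0.70 (standard error 0.57, limma adjusted p = 0.881 among transcripts listed in all libraries). No member was called in any set. Trem2-201 had 6.35 ± 1.95 FPKM in 10 female and 5.38 ± 1.84 FPKM in 12 male libraries, a log2 difference of 0.27 (standard error 0.21, limma adjusted p = 0.892). The whole table had 0% called in the transcripts listed in all libraries, 0.0113% in those listed in at least 20 and 0.0248% in the gene sums. A sex difference that varied with diet was called for 0.0991% of the gene sums, and for neither C1qb nor Ctss (limma adjusted p = 0.949 for both).

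Correlation between the genes over the libraries did not pass a test unless diet and sex were first removed. For 7 of the 9, leaving out C1qb and C1qc because their values were divided into separate ranges, 21 pairs of gene sums were correlated over the libraries listing both. Pearson's r ran from -0.46 to 0.82 with a median of 0.12, and 14 pairs were positive. No pair passed after adjustment over the 21 (permutation test). The 2 pairs with the smallest p were C1qa and Tyrobp, with r = 0.82 and rho = 0.86 over 7 libraries (exact permutation p = 0.0127, adjusted p = 0.215), and Trem2 and Ctss, with r = 0.43 and rho = 0.36 over 29 libraries (permutation p = 0.0205, adjusted p = 0.215). Without the 2 libraries farthest from the median of Trem2, r for Trem2 and Ctss was 0.23 over 27 libraries (permutation p = 0.255). With diet and sex removed from the values, 17 of the 21 pairs had enough libraries, since 4 pairs with C1qa, among them C1qa and Tyrobp, did not. Trem2 and Ctss then had r = 0.65 over 29 libraries (permutation test, adjusted p = 0.00204 over the 17 pairs), and these residuals were not tested without the 2 libraries. The permutation took no account of the diet and sex terms already fitted, so this p can be too small. The Trem2 sums also fall apart, because an unlisted Trem2-201 counts as 0. Without Trem2-201 they hold Trem2-203 alone, at 0.869 to 2.48 FPKM, while the highest sum was 12.1 FPKM. With Trem2-201 and Ctss-202 in place of sums, diet and sex not removed, r was 0.34 over 22 libraries (permutation p = 0.126). Residuals of these 2 transcripts were not tested.

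The sums of C1qb and Ctss were averaged on the log2 scale, after each was centred and scaled to the same spread. Among the 4034 other gene sums in the fit, the 10 most like that average over the 30 libraries were Slc38a3 (r = 0.57), which encodes a glutamine transporter, Chpt1 (0.56), a choline phosphotransferase of phospholipid synthesis, Rbm39 (0.54), an RNA-binding protein of splicing, Tspan31 (0.51), Chchd1 (0.50), Kdm2a (0.50), Gm12009 (0.48), Slc20a1 (0.48), Pdlim7 (0.47) and Vsnl1 (0.46). They were picked for the highest r of 4034 sums, so their r is high by selection and shows no shared regulation. The likeness is a description without a test, and it draws on C1qb, whose values lie in 2 ranges.

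Other genes of microglia and of the pathways around the 9 were read from lists. Of 28 other microglia genes, 8 entered the gene-sum fit and none was called in any comparison. Among the highest were Cst3, encoding the protease inhibitor cystatin C and also made by astrocytes, at a mean of 917 FPKM, Lgmn, a lysosomal protease, at 37.8, and Rgs10, a regulator of G protein signalling, at 12.04 FPKM. The median log2 difference of the 8 from Chow was -0.06 in ChowCR and 0.08 over the P diets, beside 0.02 and -0.0032 for all sums.

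The ligands and partners were also without a call. Cx3cl1, the fractalkine that binds CX3CR1, had 126 ± 12.5 FPKM in ChowCR, 129 ± 12.4 in 5% P, 129 ± 11.4 in 10% P, 135 ± 5.28 in 15% P and 137 ± 25.1 FPKM in Chow (SD, n = 6 each). The CSF1R ligands Csf1 and Il34 were listed in 12 and 20 libraries, at means of 4.46 and 1.57 FPKM. Among 12 genes of TREM2 and TYROBP signalling, 2 entered the fit, with a median difference from Chow of 0.20 in ChowCR and 0.10 over the P diets. Apoe, an apolipoprotein bound by TREM2 and made chiefly by astrocytes, averaged 686 ± 58.9 FPKM in ChowCR against 553 ± 109 FPKM in Chow (SD, n = 6 each). The difference, 0.33 on the log2 scale, had an unadjusted p of 0.0097 and did not pass (limma adjusted p = 0.544). It was not particular to ChowCR: in 10% P Apoe differed from Chow by 0.29, with an unadjusted p under 0.05 (limma adjusted p = 0.707). In 5% P and in 15% P it differed from Chow by 0.10. Clu, another apolipoprotein, differed by 0.08 in ChowCR. Grb2 was listed in 24 libraries at a mean of 26.5 FPKM and Inpp5d in 12 at 1.15 FPKM, and Syk, the kinase downstream of TYROBP, in 1 library at 0.21 FPKM.

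Of 27 genes of the complement cascade and its regulators, 5 entered the fit, and the median difference from Chow was 0.02 in ChowCR and 0.16 over the P diets. Calr, the chaperone calreticulin that can bind C1q, had 107 ± 19.4 FPKM in 15% P against 86.5 ± 5.85 FPKM in ChowCR (SD, n = 6 each). The difference, 0.28 on the log2 scale, did not pass (limma adjusted p = 0.533). Nptx1, a neuronal pentraxin that binds C1q, had a mean of 95.4 FPKM, Sirpa, the receptor of the signal CD47, 64.1 FPKM, and Nptxr, the neuronal pentraxin receptor, 49.9 FPKM with a range of 11.5 to 203 FPKM. C4b, which acts next to C1q in the cascade, was listed in 29 libraries at a mean of 7.53 FPKM, and C1s1, a protease of the C1 complex, in 2.

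Of 15 cathepsins and cystatins 9 entered the fit. The proteases Ctsb, Ctsd and Lgmn averaged 198, 143 and 37.8 FPKM and the inhibitor Cst3 917 FPKM. The median difference from Chow was 0.06 in ChowCR and -0.02 over the P diets, and none was called. Of 25 genes raised in disease-associated microglia 9 entered the fit, and Fth1, Apoe, Ctsb and Ctsd were the highest, at 1092, 617, 198 and 143 FPKM. Their median difference was 0.15 in ChowCR and -0.02 over the P diets. The tissue also expresses these 4 in other cell types. Of 13 purinergic genes 2 entered the fit, Adora1, the adenosine receptor of neurons, at 17.8 FPKM and Gnai2, a G protein, at 1.27 FPKM, with a median difference of 0.40 in ChowCR and 0.22 over the P diets. P2ry13, the relative of P2ry12, was listed in 12 libraries at 3.64 FPKM and P2rx4 in 30 at 0.89 FPKM. Of 12 transcription factors and signals of microglia 3 entered the fit, with a median difference from Chow of -0.06 in ChowCR and -0.25 over the P diets. Among them, Cebpa differed by 0.31 and Maf by -0.07 in ChowCR, and by -0.05 and -0.25 over the P diets. Over the P diets all 3 lay below Chow, at -0.34 to -0.05, and none was called. Mef2a, Smad3 and Mef2c, which neurons also express, had means of 22.0, 11.9 and 6.33 FPKM in the libraries that listed them.

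**Figure D5:**
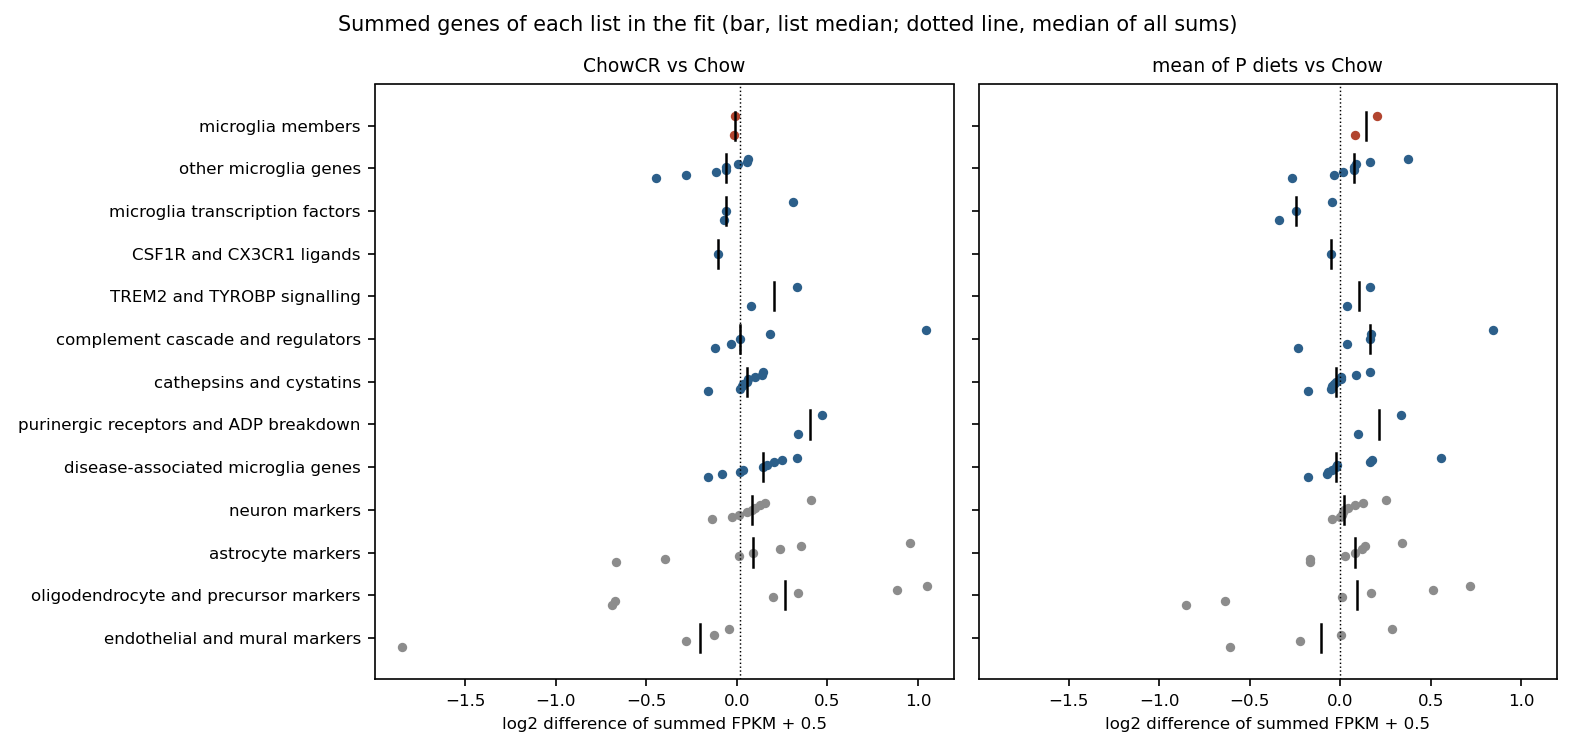
Log2 differences of the summed genes of 13 lists, for ChowCR and for the averaged P diets, each against Chow, with 1 point per gene in the fit, the list's median as a bar and the median of all sums as a dotted line. The 2 members in the fit lie near the line for ChowCR and at 0.08 and 0.20 for the P diets, and no point was called.

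Other macrophages and blood leukocytes carry some of the same RNAs. Of 10 markers of border macrophages 6 had a row and 0 entered the fit. Stab1 was the most widely listed, in 24 libraries at a mean of 0.52 FPKM, Pf4 was listed in 13 at 0.58, Cbr2 in 6 at 0.66, Dab2 in 2 at 3.004 and Mrc1 in 1 at 0.13 FPKM. Of 16 markers of blood leukocytes 4 had a row and 0 entered the fit: Ptprc, which microglia also carry, at 0.14 FPKM and Ccr2 at 0.06, with S100a8 in 3 libraries and Cd3g in 1. No marker of neurons, astrocytes, oligodendrocytes, vessels, choroid plexus or red blood cells was called in any comparison of diets. Of their lists, 9 of 12 neuronal, 7 of 10 astrocytic, 6 of 11 oligodendrocytic, 4 of 12 vascular, 2 of 10 choroid plexus and ependymal and 4 of 6 red blood cell genes entered the fit. Over the P diets their median differences from Chow were 0.02, 0.08, 0.09, -0.11, -1.62 and -0.09 in that order, and in ChowCR 0.08, 0.09, 0.27, -0.20, -0.13 and -0.11. The neuronal Camk2a, Snap25, Syt1 and Slc17a7 averaged 576, 514, 192 and 185 FPKM, the astrocytic Aldoc, Slc1a2, Gfap and Slc1a3 243, 169, 110 and 87.2 FPKM, and the oligodendrocytic Mbp, Mobp and Cnp 934, 175 and 85.2 FPKM. The vascular Slc2a1, Rgs5, Itm2a and Cldn5 had 24.1, 18.3, 17.9 and 11.4 FPKM, and the haemoglobins Hbb-bs, Hba-a1, Hba-a2 and Hbb-bt of red blood cells 42.5, 36.2, 29.8 and 18.97 FPKM. Ttr, a product of the choroid plexus, ranged from 7.16 to 7513 FPKM over the libraries, Enpp2 from 25.02 to 471 FPKM, Kl was listed in 22 libraries and Clic6 in 10. Ttr and Enpp2 differed from Chow by -2.34 and -0.91 on the log2 scale over the P diets and by -0.12 and -0.14 in ChowCR, without passing the test. With Ttr as a covariate 0 members were called in any comparison. None was called without it either, so this count cannot show the part of Ttr in the members' values. That part was not tested in another way, and the part of Enpp2 was not tested.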

How the data were processed

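Whole hippocampus of 30 mice was sequenced with a stranded poly(A) kit, per the labels' protocols, and the authors deposited 1 table of FPKM values per transcript. The submitters' processing notes name StringTie 1.2.4, TopHat2 2.0.14, bcl2fastq 2.18.0, DESeq2 1.16.1, featureCounts 1.4.6 and the build mm10, without their roles. The sources used here give neither the annotation release nor the strand setting, and values of overlapping genes are uncertain. The table holds no counts, and depth is unknown. A blank is a transcript that a library does not list. Transcript names, coordinates and sequences were matched to GENCODE M21 (GRCm38).

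The deposited FPKM were put on the scale log2(FPKM + 0.5) and fitted in R 4.3.3 by limma 3.58.1 (trended empirical Bayes, diet and sex as terms, all 30 libraries). Each contrast was fitted as a model coefficient, so that its standard error stays exact where values are missing. P-values were adjusted by Benjamini-Hochberg over all features of a comparison, with a threshold of 0.05. Features needed a mean of at least 1 FPKM. Transcripts listed in at least 20 libraries were added after the data were seen, as were Fisher's exact tests of listing and the counts of ranges that do not overlap. Gene sums count an unlisted transcript as 0 and keep genes with at least 1 transcript listed in all libraries. Correlations used permutation tests (100000 resamples, exact under 10 libraries) in SciPy 1.17.1. The scripts were tested on simulated data. The labels do not say how the animals were housed or if litters were shared, so p-values measure the spread between these libraries.

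Named genes are every transcript of the 9, up to 4 genes of highest mean in each further list, and the 10 sums most like the members. Some genes that this rule names are not reported here. Others named in the lists were chosen after their values were seen. The members and lists were chosen with earlier results of these data known.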

Additional observations from a re-analysis of the deposited data

Results flagged for a closer look

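In 7 of 53 groups of 4 to 6 values, 1 library lay farther from its nearest neighbour than Dixon's 95% criterion allows, and chance flags about 1 in 20 groups. Cx3cr1-201 was 0.03495 FPKM in ChowCR replicate 1, against 7.206 FPKM in the nearest ChowCR library. C1qb-201 was 2.086 FPKM in 15% P replicate 3, the only low value of that diet, with the nearest at 29.5 FPKM. Chow replicate 5 stood apart in both Ctss transcripts, with 30.35 FPKM of Ctss-202 (nearest 43.2) and 9.114 FPKM of Ctss-201 (nearest 4.626). Ctss-202 was also lowest by this measure in ChowCR replicate 6, at 38.08 FPKM with the nearest at 43.17. P2ry12-205 was 12.97 FPKM in Chow replicate 4 with the nearest at 5.87, and Trem2-203 was 0.5055 FPKM in 15% P replicate 5 with the nearest at 0.3281. The causes were not tested.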

How the results depend on the processing

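No member was called under any alternative setting tried. A comparison had up to 44 of them for transcripts listed in all libraries, 45 for gene sums and 43 for transcripts listed in at least 20. The lowest adjusted p of a member in any of them was 0.652 (limma), for the Trem2 sum in 10% P against Chow with genes listed in at least 24 libraries. That sum counts an unlisted Trem2-201 as 0, and 2 of 6 10% P libraries listed it against 6 of 6 Chow libraries. Among listed values, Trem2-201 differed by 0.01 between these diets. Of 5543 alternative values of single members, 285 had the other sign and 106 moved by more than 1 standard error. C1qb and Ctss-202 enter more than 1 set, and most settings leave out 1 library, often of a diet not compared. These values are thus not independent, and the shares overstate how stable the members are. Residuals after diet and sex, which could be had for 17 of the 21 pairs of genes, gave 1 correlation past the threshold, Trem2 and Ctss, against 0 of 21 without that step. That permutation took no account of the terms fitted, so its p can be too small. The cause was not tested. Over the whole table the number of gene sums called for ChowCR against Chow ran from 0 to 7, beside 3 as reported, and for 15% P against ChowCR from 0 to 5, beside 0. No paired analysis was possible because the labels give no replicate numbers: those used here only name the libraries within a diet, and no number in the sample titles occurs in more than 1 diet. The unknown depth and the unlisted values limit the precision.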
